A study of Mus musculus with 8 samples.

Results

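The clustered histone genes encode the linker histone H1 and the core histones H2A, H2B, H3 and H4. They were taken here as every probe whose gene symbol is H1f, H2ac, H2bc, H3c or H4c with a number. This gave 54 of the 16562 genes on the array, with 60 of its 25662 probes. Most of these genes were named Hist1h or Hist2h in the older nomenclature. The rule reads symbols only, but the group was chosen by a look at its log2 differences between the genotypes on these same 8 arrays. Those differences are therefore given as a description, and nothing is rested on how many of them pass a threshold. By type there were 10 probes for H1, 14 for H2A, 14 for H2B, 12 for H3 and 10 for H4. In RefSeq 44 of the 54 genes lie in the large cluster on chromosome 13 and 7 in the smaller one on chromosome 3, with 11 and 3 of the H2A genes. The rule also takes in 3 H1 genes outside the clusters, namely H1f10 on chromosome 6, a linker histone that is not tied to S phase, and H1f8 and H1f7, known from oocytes and spermatids.

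RNA of neural progenitor cells from E14.5 embryos was hybridised to Illumina MouseRef-8 V2 bead arrays. The mice had a mixed background, C57BL/6 X 129S1/SvlmJ. The 4 control arrays hold cells with floxed Prmt5 and no Cre (Prmt5F/F), and the 4 Prmt5-depleted arrays hold cells with floxed Prmt5 and Cre under Nestin (Prmt5F/FNes), a gene switched on in neural progenitors. All 8 samples thus carry the floxed gene, and Cre is present in the depleted samples alone, so effects of Cre and of Prmt5 loss cannot be told apart. Separate embryos or cultures for each array are not stated in the labels, so errors and p-values given here measure the spread between these samples, which may be technical. Prmt5 adds symmetric dimethyl groups to arginines, with H4, H2A and H3 tails among its known substrates.

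Clustered histone genes are known for being copied into mRNA mainly in S phase, when new DNA has to be packed. Their mRNAs have no introns and normally end in a stem-loop that is bound by Slbp, in place of a poly(A) tail. Some copies also give transcripts with a poly(A) tail, in particular in cells that have stopped dividing. The labelling kit used here, per the labels' protocols, is a MessageAmp kit, and such kits start copying from poly(A) tails, so the signals need not follow the total histone mRNA. The gene copies of one type are nearly identical in their coding parts. The probe sequences were not used here, so a probe may read several copies, and a change is ascribed below to the probe named for a gene. Probes also differ in how strongly they bind, so a bright or dim probe says nothing of how much a gene is expressed beside another.

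Many H2A genes sit head to head with an H2B gene and share the stretch between their start sites, which therefore serves both directions. A promoter window was found in RefSeq (GRCm38.p6) for 50 of the 54 genes, and H2bc4, H3c1, H3c7 and H4c14 were not matched. Among the matched genes 6 divergent pairs were found with under 500 bases between the starts, and all 6 join an H2A gene to an H2B gene. The stretches of the 4 pairs in which both partners passed the detection filter are printed, since their H2A and H2B values can be set side by side. Each is the plus strand between the annotated gene bounds, with CCAAT, ATTTGCAT and TATAAA in capitals on either strand. The pairs lie at chr13:22035644-22035820, chr13:22042950-22043197, chr13:23574208-23574380 and chr13:21753913-21754075, in the order shown, and span 177, 248, 173 and 163 bases.
H2ac12 to H2bc12: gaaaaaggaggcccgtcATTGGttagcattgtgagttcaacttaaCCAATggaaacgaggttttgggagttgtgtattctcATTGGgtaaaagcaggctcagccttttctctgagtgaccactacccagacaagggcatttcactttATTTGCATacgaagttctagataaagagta
H2ac11 to H2bc11: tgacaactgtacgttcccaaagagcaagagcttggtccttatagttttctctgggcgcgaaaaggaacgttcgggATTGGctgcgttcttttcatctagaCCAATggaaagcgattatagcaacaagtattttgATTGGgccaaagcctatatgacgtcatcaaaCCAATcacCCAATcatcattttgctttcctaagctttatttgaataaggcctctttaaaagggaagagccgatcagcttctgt
H2bc7 to H2ac7: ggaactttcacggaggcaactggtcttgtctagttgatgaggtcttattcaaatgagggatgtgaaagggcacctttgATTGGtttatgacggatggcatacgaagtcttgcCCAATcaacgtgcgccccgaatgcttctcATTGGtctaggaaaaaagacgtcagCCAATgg
H2ac15 to H2bc15: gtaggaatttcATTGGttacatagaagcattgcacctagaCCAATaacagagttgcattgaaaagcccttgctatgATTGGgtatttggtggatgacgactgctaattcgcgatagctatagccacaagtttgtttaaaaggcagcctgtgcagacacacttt

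CCAAT was found in these stretches 3, 5, 4 and 3 times, the octamer ATTTGCAT, known from H2B promoters, 1 time in the first, and TATAAA 0 times. Over windows of 300 bases around the start, CCAAT was in all 14 H2A, all 11 H2B and all 7 H3 promoters, in 7 of 9 of H1 and in 2 of 9 of H4, where 37.4% of all 32851 mouse promoter windows hold it. ATTTGCAT was in 6 of 14 H2A and 6 of 11 H2B windows and in 0 of the H1, H3 and H4 windows, against 1.74% of all windows. TATAAA was in 11 of 14 H2A, 6 of 11 H2B, 6 of 9 H4, 4 of 9 H1 and 2 of 7 H3 windows, against 13.6% of all. Windows of divergent partners overlap, so they are not independent counts, and a match is a run of letters and not a known site.

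Of the 60 probes, 45 passed the detection filter (a detection p-value under 0.05 on at least 4 of the 8 arrays) and were fitted together with all other kept probes, 13196 in all. The other 15 were near background, 11 of them on every array. Among the 45, 22 were lower and 2 higher in Prmt5-depleted cells at a limma adjusted p under 0.05, and 21 were not called. Over all kept probes 24.7% were lower and 22.1% higher, 46.7% together, and nothing is read from the members' count beside these shares. The genotypes did not overlap at 22 of the 45, where the background is 43.1%. The median log2 difference (Prmt5-depleted minus control) was -0.45 over the 45 probes and -0.32 over all 60, against -0.06 over all kept probes and -0.02 over all probes. In a fit without the filter, 24 of the 60 were lower and 2 higher, with 12.3% and 11.9% as the background. The 5 histone types differed widely from each other, and the H2A probes held the largest differences in both directions.

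**Figure D1:**
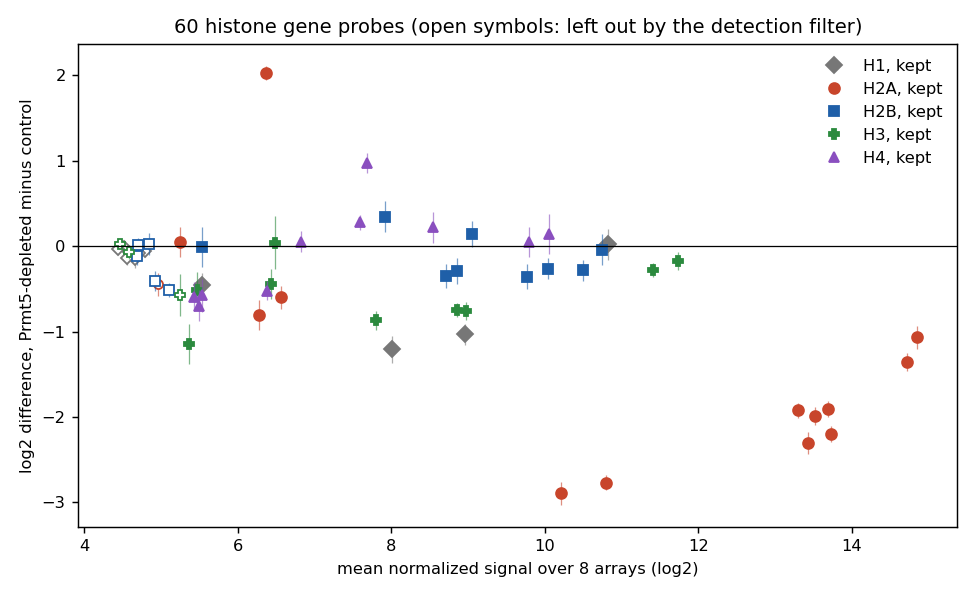
Log2 difference between genotypes (y axis) against the mean normalized log2 signal over 8 arrays (x axis) for the 60 histone gene probes, by histone type; bars are standard errors from the fit of all probes, and open symbols are the 15 probes left out by the filter. The 9 H2A probes at the right lie between -2.89 and -1.07, while the kept H2B probes lie between -0.36 and 0.35.

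H2A, which pairs with H2B in the nucleosome, had 13 of 14 probes kept. Of these 11 fell, 1 rose and 1 was not called, and the genotypes did not overlap at 12 of the 13. Over all kept probes 46.7% were called and 43.1% did not overlap. Each H2A gene has 1 probe. A set of 9 probes, described together after their values were seen because their mean signal was over 1000 intensity units, fell between 2.10-fold and 7.44-fold, with a median log2 difference of -1.99. Their signals before normalization ran from 2539 to 49349 on control arrays and from 442 to 21373 on Prmt5-depleted arrays. H2ac21 and H2ac11 passed that mark through their control signals, since all their depleted signals were below it.

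The largest fall was at H2ac21 (Hist2h2ab, chr3:96219885-96220354). On the control arrays, in order of their numbers, the normalized log2 signals read 11.59, 11.51, 11.73 and 11.82, and on the depleted arrays 8.81, 8.51, 8.63 and 9.12. Every depleted array was below every control array by more than the spread within either genotype. The means were 11.66 ± 0.14 and 8.77 ± 0.26 (SD, n = 4 each), a 7.44-fold fall (log2 standard error 0.15). H2ac11 (Hist1h2ag, chr13:22042478-22042949) was close to it, with 12.25, 12.09, 12.20 and 12.22 on the control arrays and 9.46, 9.24, 9.33 and 9.64 on the depleted arrays. The arrays of a genotype lay close together and the genotypes were far apart, a 6.81-fold fall (log2 standard error 0.12).

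Next in size were H2ac12, H2ac15 and H2ac7, all from the cluster on chromosome 13. H2ac12 (Hist1h2ah) had 14.66, 14.59 and 14.57 on control 1, 3 and 4, with control 2 just below them, and 12.31, 12.00, 12.14 and 12.65 on the depleted arrays. The means were 14.58 ± 0.07 and 12.27 ± 0.28 (SD, n = 4 each), and it fell 4.95-fold (log2 standard error 0.14). H2ac15 (Hist1h2ak) had 14.91, 14.75, 14.85 and 14.80 against 12.69, 12.44, 12.52 and 12.87. Depleted array 2 was the lowest and depleted array 4 the highest of the depleted arrays at both genes, a spread far smaller than the 4.59-fold fall of H2ac15. H2ac7 (Hist1h2ad) had 14.58, 14.54, 14.46 and 14.46 against 12.62, 12.23, 12.58 and 12.66, a 3.97-fold fall. H2ac22 and H2ac10 fell 3.79-fold and 3.74-fold, again with no overlap of the genotypes.

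The falls of H2ac20 and H2ac24 were the smallest of these 9. H2ac20 (Hist2h2ac) had 15.46, 15.39, 15.28 and 15.46 on the control arrays and 14.16, 13.74, 14.03 and 14.23 on the depleted arrays, a 2.56-fold fall. H2ac24 (Hist1h2ap) had 15.49, 15.55, 15.37 and 15.16 against 14.35, 14.12, 14.16 and 14.66, a 2.10-fold fall. On the control arrays their raw signals were near the top of the scale. The signal of H2ac24 on control 2, 49349 intensity units, was the highest of that whole array. Whether a ceiling of the scanner shortens these 2 differences was not tested.

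**Figure D2:**
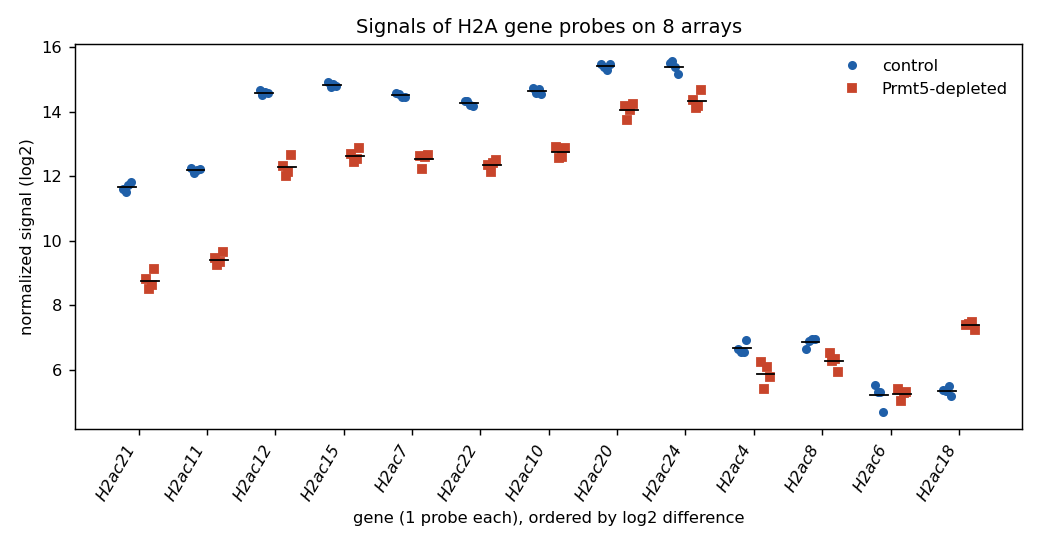
Normalized log2 signal (y axis) of the 13 kept H2A probes on each array (x axis: genes in order of their difference); circles are the 4 control arrays, squares the 4 Prmt5-depleted arrays and black lines the means. The genotypes stand apart at every gene but H2ac6, and H2ac18 is the gene with the opposite direction.

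The dim H2A probes behaved differently from one another. H2ac18 (Hist2h2aa1, chr3:96245497-96246052), which has a near-identical copy beside it in the cluster, rose from 5.38, 5.36, 5.49 and 5.20 on the control arrays to 7.40, 7.42, 7.47 and 7.25 on the depleted arrays. All 4 depleted arrays were above all control arrays, and 3 of the 4 control arrays detected the probe. The estimate was 4.08-fold (log2 difference 2.03, standard error 0.12). Because the control signal is near background, its size depends on the processing, with a log2 difference of 1.07 without background correction and 1.43 with a larger offset. H2ac4 fell 1.75-fold and H2ac8 1.52-fold, both without overlap. Their log2 differences of -0.80 and -0.60 were -0.40 and -0.33 without background correction, and -0.55 and -0.44 with the larger offset. H2ac6 had a log2 difference of 0.05 and was not called, and H2ac1, a gene known from testis, was detected on 2 control arrays and left out by the filter.

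Other core histone genes with different designations, which the rule does not take in, were looked at after the data were seen. H2aw (Hist3h2a), a further H2A gene, rose 2.27-fold (limma adjusted p = 2.61e-05), from 5.38, 5.76, 5.85 and 5.65 to 6.83, 7.03, 6.71 and 6.79. H2bu2, an H2B gene, rose 1.46-fold (limma adjusted p = 0.00622). H4f16 and H2bu1-ps were left out by the filter, with log2 differences of 0.14 and 0.11.

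H2B probes stood in contrast. Of 14 probes 9 were kept, and 0 were called in the limma fit, beside 46.7% of all kept probes. Of the 9, 2 had an unadjusted p under 0.05, and the genotypes overlapped at all 9. Their log2 differences ran from -0.36 to 0.35, and over the 9 probes the 95% confidence intervals of the difference reached from -0.70 to 0.75. H2bc4 (Hist1h2bc) had 10.22, 10.75, 10.89 and 11.19 on the control arrays and 10.70, 10.71, 10.66 and 10.81 on the depleted arrays. The control arrays spread by nearly a whole log2 unit, from control 1 to control 4, and enclosed all depleted arrays. The log2 difference was -0.04 with a 95% confidence interval of -0.43 to 0.35.

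H2bc7 (Hist1h2bf) had 10.31, 10.57, 10.84 and 10.84 against 10.34, 10.20, 10.46 and 10.42, a log2 difference of -0.28 (95% confidence interval -0.59 to 0.03). H2bc11 (Hist1h2bj) had 9.9, 10.4 and 10.4 on control 1, 3 and 4, with control 2 in between, against 9.84, 9.87, 9.90 and 10.02, a log2 difference of -0.26 (95% confidence interval -0.57 to 0.04). Control 1 was the lowest control array at all 9 kept H2B probes. Leaving it out moved their median log2 difference from -0.26 to -0.36. Without control 1, H2bc15, H2bc7 and H2bc9 were called lower (limma adjusted p = 0.0185, 0.0307 and 0.0209), and 0 H2B probes were called in the other settings with a detection filter. In the fit without it, 2 of the H2B probes near background were called lower. The brighter probe of H2bc18 had a log2 difference of 0.35, with 7.16, 8.01, 8.01 and 7.80 against 8.26, 8.01, 8.15 and 7.93. Its second probe, detected on 1 array, was at -0.41 without passing the filter, so the 2 probes of this gene do not give one direction. Of the H2B probes left out, H2bc3 was detected on 3 control and 0 depleted arrays, and measured against the detection floor it was at least 1.16-fold lower.

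The divergent pairs bring H2A and H2B together at 1 stretch of DNA each, shown for 4 of them in the sequences above. In 4 of the 6 pairs both partners were kept, and in all 4 the H2A probe fell while the H2B probe was not called. A probe may read several near-identical copies, so the 4 pairs need not be 4 separate cases. H2ac11 and H2bc11 had log2 differences of -2.77 and -0.26, H2ac12 and H2bc12 of -2.31 and -0.29, H2ac15 and H2bc15 of -2.20 and -0.35, and H2ac7 and H2bc7 of -1.99 and -0.28. In the pair of H2ac8 and H2bc8 the dim H2A probe differed by -0.60 on the log2 scale, and H2bc8 was detected on 0 arrays. H2ac1 and H2bc1, both known from testis, were left out by the filter. H2ac6 (chr13:23683473-23683959) and H2bc4 (chr13:23684199-23692480) also lie side by side. As H2bc4 had no promoter window, its strand was open and they were not counted as a pair. Their kept probes had log2 differences of 0.05 and -0.04, and neither was called. The H2ac6 probe was near background, with raw signals between 80.8 and 104 and detection on 3 control and 3 depleted arrays. A fall could hardly show at that signal, so these 2 genes do not tell whether the split of the 4 pairs holds there. As the difference between H2A and H2B belongs to the comparison with which the genes were chosen, it was not tested.

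**Figure D3:**
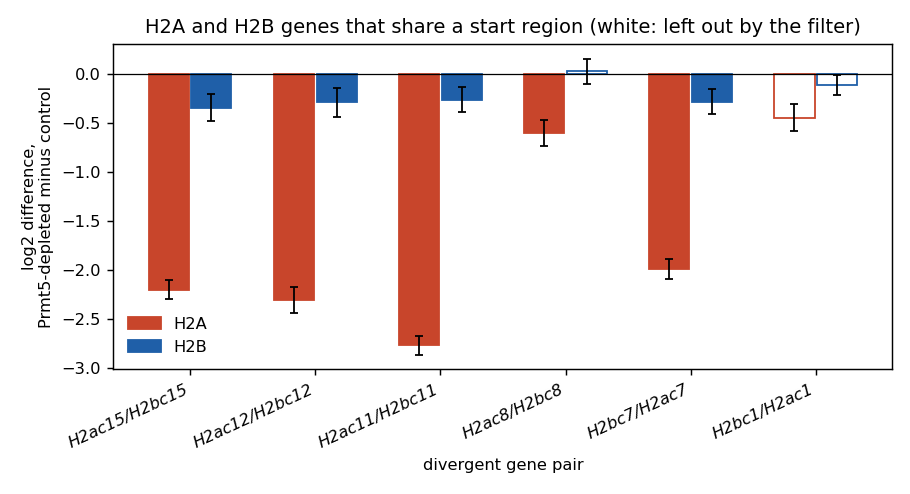
Log2 difference (y axis) of the H2A (red) and H2B (blue) probe of each of the 6 divergent gene pairs (x axis), with standard errors from the fit of all probes; white bars are probes left out by the filter. In the 4 pairs with both probes kept, H2A lies between -2.77 and -1.99 and H2B between -0.35 and -0.26.

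H3, the core histone whose tail carries many regulatory marks, had 9 of 12 probes kept, of which 4 fell, 0 rose and 5 were not called. The share called, 44.4%, is near the 46.7% of all kept probes, and nothing is read from it. H3c6 (Hist1h3e) had 9.31, 9.43, 9.22 and 9.45 on the control arrays and 8.76, 8.33, 8.64 and 8.63 on the depleted arrays, a 1.70-fold fall (log2 standard error 0.13) with no overlap. H3c1 (Hist1h3a), which encodes the H3.1 protein, fell 1.83-fold, and H3c4 fell 1.68-fold. H3c3 was detected on all 4 control arrays and on 0 depleted arrays, and was at least 1.73-fold lower on these normalized values. Its log2 difference of -1.14 was -0.51 without background correction and -0.64 with the larger offset.

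H3c13 and H3c14, the H3 genes measured here in the cluster on chromosome 3, were not called. H3c13 (Hist2h3b) had 11.62, 11.90, 11.75 and 12.02 against 11.64, 11.81, 11.46 and 11.69, with overlapping genotypes and a log2 difference of -0.17 (95% confidence interval -0.46 to 0.11). H3c14 (Hist2h3c1) had 11.39, 11.47, 11.58 and 11.75 against 11.27, 11.36, 11.23 and 11.21 at its brighter probe. Here every depleted array was below every control array, but the difference of -0.28 had a limma adjusted p of 0.0711. It was called lower with the larger offset, without the filter, with a variance trend, without background correction and without control 1 (limma adjusted p between 0.0274 and 0.0471). Its dimmer probe gave -0.44 and was not called, except without control 4 or with control 4 and Prmt5-depleted 1 and 3 left out together. Of the 3 probes of H3c7, 1 was kept, with a log2 difference of 0.04 and a standard error of 0.28, the widest of the kept members.

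H4, the most conserved core histone, is encoded by many copies with the same protein, and all 10 of its probes were kept. Of these 4 fell, 1 rose and 5 were not called, and the median log2 difference was 0.05. Here too the share called, 50%, is near the 46.7% of all kept probes. H4c8 (Hist1h4h) rose 1.96-fold, from 7.19, 7.23, 7.09 and 7.28 on the control arrays to 8.41, 7.83, 8.18 and 8.25 on the depleted arrays, with no overlap (log2 difference 0.97, standard error 0.14). The falls were all at dim probes, with raw signals between 79.5 and 166, and between 1.43-fold and 1.62-fold, at H4c2, H4c3, H4c4 and H4c14. Their log2 differences, in that order, were -0.70, -0.59, -0.52 and -0.57. Without background correction they were -0.29, -0.24, -0.27 and -0.24, so their size depends on the processing. H4c2 was detected on 4 control and 2 depleted arrays, and H4c3 on 3 and 1, so both passed the filter mainly through the control arrays. The genotypes overlapped at H4c3 and H4c14. H4c14 lost its call without control 3, control 4, Prmt5-depleted 2 or Prmt5-depleted 3 (limma adjusted p between 0.0511 and 0.0731). H4c3 and H4c14 also lost theirs when control 4 and Prmt5-depleted 1 and 3 were left out together (limma adjusted p = 0.0579 and 0.0788), and H4c14 was not called without the filter or without background correction.

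The brighter H4 probes varied between arrays of one genotype more than between genotypes. H4c9 (Hist1h4i) had 9.94, 9.70, 9.83 and 10.49 on the control arrays and 10.54, 9.68, 10.41 and 9.89 on the depleted arrays. Control 4 and Prmt5-depleted 1 and 3 were the 3 highest. H4c6 (Hist1h4f) had 9.78, 9.40, 9.84 and 10.09 against 10.15, 9.51, 9.92 and 9.72, and H4c11 (Hist1h4j) had 8.24, 8.37, 8.37 and 8.75 against 8.98, 8.21, 8.88 and 8.54. The same 3 arrays were the highest at both. Over all kept probes these arrays lie apart from the other 5 along the second principal component (10.5% of the variance), at -27.5, -18.1 and -15.0 against 9.55 to 16.9. With the 3 arrays left out, the log2 difference of H4c9 was -0.03 in place of 0.14, that of H4c6 was -0.06 in place of 0.05 and that of H4c11 was 0.05 in place of 0.22, and none of the 3 was called in either case. The part of whatever sets these arrays apart in the H4 signals was not tested. H4c12 had a log2 difference of 0.28 and was called higher only when Prmt5-depleted 2 was left out (limma adjusted p = 0.029).

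**Figure D4:**
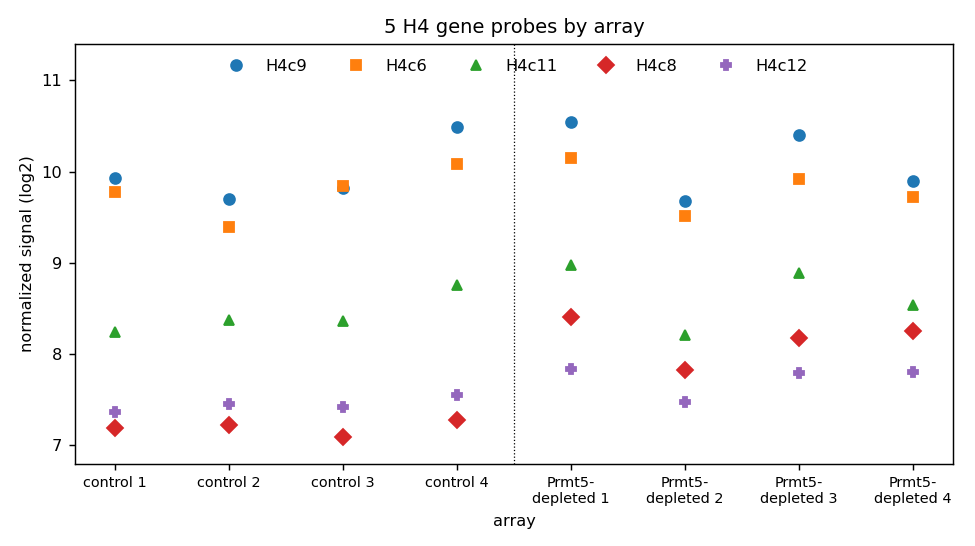
Normalized log2 signal (y axis) of the 5 H4 probes with the highest mean signal on each of the 8 arrays (x axis; the dotted line divides the genotypes). H4c9, H4c6 and H4c11 are highest on control 4 and Prmt5-depleted 1 and 3, while H4c8 is higher on every depleted array than on any control array.

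Among H1 genes 4 of 10 probes were kept. H1f10 (H1fx, chr6:87980421-87981482) fell at both of its probes, 2.04-fold at the brighter one, from 9.54, 9.37, 9.52 and 9.48 to 8.59, 8.14, 8.36 and 8.70, and 2.31-fold at the other. Neither probe had overlapping genotypes. H1f2 (Hist1h1c), an H1 gene of the cluster on chromosome 13, had 10.26, 10.98, 11.19 and 10.83 on the control arrays and 10.99, 10.72, 10.91 and 10.72 on the depleted arrays, a log2 difference of 0.02 (95% confidence interval -0.38 to 0.42). Control 1 was again the lowest array. H1f5 fell 1.37-fold near background with overlapping genotypes. Its call did not survive leaving out control 2 or 3 or Prmt5-depleted 1, 2 or 3 (limma adjusted p between 0.0534 and 0.0903), nor a larger offset, the fit of all probes or the values without background correction. H1f1, H1f3, H1f4, H1f6, H1f7 and H1f8 were detected on 0 of the 8 arrays.

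Histone variants outside the clusters, known for expression outside S phase or for transcripts with poly(A) tails, were looked at next, together with the genes that make, process and deposit histones. Prmt5 itself was first checked and fell 6.49-fold at its brightest probe and 8.45-fold and 6.06-fold at its other probes, in the direction of the labels. Which exons these probes and the floxed stretch cover is not given in the labels. Of 9001 genes taken at 1 probe each, 24.1% were lower and 23.7% higher in the limma fit, 47.8% together, with a median log2 difference of -0.04. Of the 8 variants on the array that the clustered set does not hold, 7 were kept, 4 fell, 2 rose and 1 was not called. Their median log2 difference was -0.80. Cenpa, the H3 variant of centromeres, fell 2.39-fold (limma adjusted p = 2.74e-05), H2ax, the H2A variant phosphorylated at DNA breaks, 2.21-fold (limma adjusted p = 0.000145) and Macroh2a1, known from inactive chromatin, 1.74-fold (limma adjusted p = 6.48e-05).

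H2aj, an H2A variant that has a poly(A) tail, went the other way. It had 7.5, 7.39, 7.15 and 7.49 on the control arrays and 9.40, 9.24, 9.40 and 9.34 on the depleted arrays, a 3.89-fold rise (limma adjusted p = 2.88e-07) with no overlap. H3f3a, 1 of the genes for the replacement histone H3.3, rose 1.30-fold with overlapping genotypes (limma adjusted p = 0.0367). Leaving out control 1, 2 or 3 or Prmt5-depleted 1, 2 or 3 ended that call (limma adjusted p between 0.0568 and 0.0949), so that 1 variant rose in those fits.

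Histone chaperones, which escort histones to DNA, were mixed. Of 20 kept genes 9 fell, 1 rose and 10 were not called, with a median log2 difference of -0.27. Mms22l, a partner of the chaperone Tonsl at replication forks, fell 3.54-fold (limma adjusted p = 2.01e-06), Chaf1b, a subunit of the assembly factor CAF-1, 2.94-fold (limma adjusted p = 3.07e-05) and Asf1b, an H3 and H4 chaperone of dividing cells, 2.46-fold (limma adjusted p = 2.31e-05). Hjurp, which loads Cenpa, fell 2.09-fold (limma adjusted p = 2.57e-05). Nap1l3, a member of a family that binds H2A and H2B, rose 2.11-fold (limma adjusted p = 0.00089), and 2 chaperones rose when control 1 was left out.

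Of 11 kept genes for transcription, processing and decay of histone mRNA, 5 fell, 1 rose and 5 were not called, with a median log2 difference of -0.32. Cstf2, a cleavage factor, fell 1.54-fold (limma adjusted p = 0.00112), Cpsf4 1.51-fold (limma adjusted p = 0.00633) and the cap-binding gene Ncbp1 1.40-fold (limma adjusted p = 0.0137). Hinfp, a transcription factor of H4 genes, rose 1.65-fold (limma adjusted p = 0.00801), with overlapping genotypes and low raw signals between 91.1 and 189. Slbp, Zfp473 and Casp8ap2, which act in the stem-loop pathway, were detected on 0 arrays, so a change in them could not be shown at this signal. The count of 5 falls was 3 without control 3, control 4 or Prmt5-depleted 4, and 2 genes rose without control 4.

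Of 26 kept genes of S-phase entry and DNA replication, 23 fell, 0 rose and 3 were not called, with a median log2 difference of -1.01. Pold1, Mcm7, Rfc4 and Mcm2 fell 3.86-fold, 3.28-fold, 2.71-fold and 2.70-fold (limma adjusted p between 1.40e-06 and 1.80e-05). The summed normalized signal of the 27 replication genes on the array ran from 31908 to 44468 on control arrays and from 15030 to 18460 on depleted arrays. That of 10 neuron markers ran from 7367 to 8231 and from 21770 to 24204, and 7 of the 8 kept rose. That of 10 radial glia and neural stem cell markers ran from 32042 to 35962 and from 31457 to 34927, and of the 7 kept 2 rose and 3 fell. Slc1a3 and Vim held most of that sum, with log2 differences of -0.30 (not called) and 0.54, so it says little of the other markers. Hes5, a Notch target of progenitors, fell 8.79-fold, Hes1 2.63-fold and Sox2 2.32-fold, while the filament genes Vim and Nes rose 1.46-fold and 1.32-fold. These 5 and Slc1a3 were detected on all 8 arrays, and Pax6 and Msi1 on none. Oligodendrocyte lineage markers were summed at 35008 to 39174 and 23069 to 27418, with 5 of 6 lower and 1 higher. Olig1, which fell 1.39-fold, held most of that sum. Pdgfra and Gpr17, detected on 0 depleted arrays, were at least 30.6-fold and 15.2-fold lower, while Mbp rose 4.16-fold. Markers of endothelium and of microglia summed to at most 66.4 and 111, and those of erythroid and of mesenchymal cells to at most 249 and 884, with 1 of 1 and 2 of 2 kept markers higher. The part of these shifts in the histone signals was not tested, and in a bulk sample fewer cells of a type cannot be told from less RNA per cell.

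**Figure D5:**
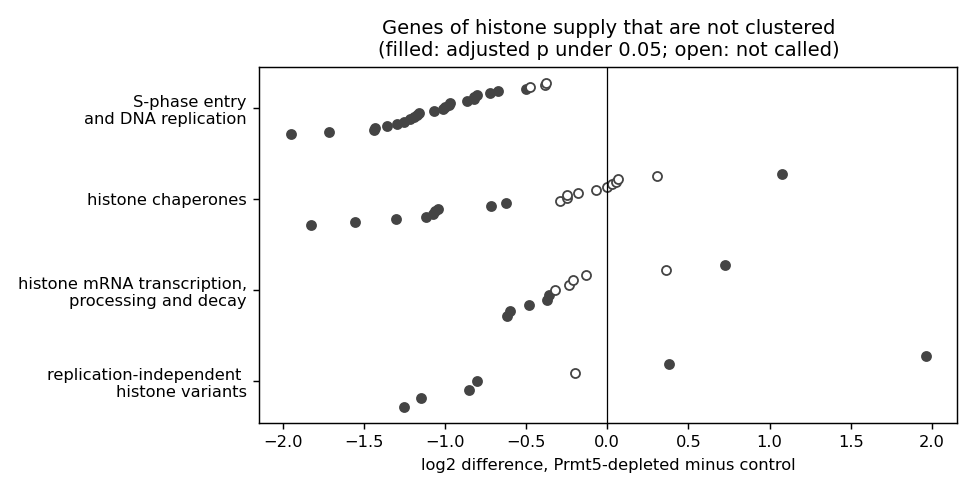
Log2 difference (x axis) of each kept gene in 4 groups of genes (y axis) that are not in the clustered histone set; filled points passed an adjusted p of 0.05 and open points did not. The replication genes all lie below 0, and H2aj at 1.96 is the highest point.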

How the data were processed

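The authors deposited an intensity per probe on each array, not normalized, per the file headers, and a detection p-value for each, per the file headers. For scanner software and earlier steps the sources used here give nothing. The deposited series matrix holds intensity values that equal the quantile normalized first table within 3.64e-12, on a linear scale with column medians of 95.7 to 95.8, and served as an alternative. All columns were matched to samples by name.

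Signals went through neqc (limma 3.58.1, R 4.3.3), which corrects the background by normexp with detection p-values, adds an offset of 16, normalizes by quantiles and takes log2. Low signals are drawn together by the offset, and quantile normalization hides a change shared by most genes. The filter kept 13196 probes. Mean raw signals were 449 to 598, and 12518 to 13602 probes were detected per array. Pearson correlations were 0.979 to 0.993 within and 0.912 to 0.933 between genotypes, and the number of arrays limits the precision. Genotypes were compared by lmFit and eBayes with no covariate (two-sided), adjusting by Benjamini-Hochberg over all kept probes; the script was tested on simulated data. Symbols came from the platform annotation (23943 probes with 1 gene, 1719 with none; 23927 matched to RefSeq, 0 renamed), and coordinates from RefSeq on GRCm38.p6. A gene outside the histone set was represented by the brightest of its kept probes. "At least" folds set each array without detection to the lowest signal among detected probes, or to the probe itself where that is higher.

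Members and gene lists were chosen with earlier results of these data known. Genes named are the 3 brightest kept probes of each histone type, the 5 largest rises and falls, genes with several probes, Prmt5 and, per list, up to 4 called genes with the smallest adjusted p and 2 against the majority. Others were named after their values were seen. Alternatives were other backgrounds, offsets and filters, a variance trend, a replicate block and arrays left out.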

Additional observations from a re-analysis of the deposited data

Results flagged for a closer look

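Among 92 groups of 4 arrays examined for the genes named, 3 held an array far from the others. The mark was a gap to its neighbour of over 0.829 of the group's range. As chance gives about 1 in 20, a count of 3 in 92 is no more than chance would give. H4c12 was at 7.47 on Prmt5-depleted 2, while the other depleted arrays were at 7.79 to 7.84. Prmt5 was lowest on control 1 at 2 probes, at 10.02 against 10.48 to 10.54 on the other controls and at 9.64 against 10.14 to 10.24. Control 1 was also the lowest of the control arrays at all 9 kept H2B probes and at H1f2.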

How the results depend on the processing

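Under each of the 15 alternatives the H2A probes gave 11 falls and 1 rise of 13 kept (12 and 1 of 14 without the filter, 11 and 1 of 12 with the stricter one). All clustered probes gave 17 to 26 falls and 2 or 3 rises, and all probes 5456 to 6300 calls. No value of a named gene changed direction where it had been called. With the replicate block 1 histone variant rose and 3 genes of histone mRNA transcription, processing and decay fell, and the same counts came from leaving out control 4 and Prmt5-depleted 1 and 3 together. With the block H3f3a was not called (limma adjusted p = 0.0882). The deviations of same-numbered arrays had correlations of -0.14, 0.24, -0.16 and -0.37. So few values cannot settle whether the numbers pair the samples. With the block 5516 probes were called. With 1 array left out, variants that rose numbered 1 to 2, chaperones that rose 1 to 2, and genes of histone mRNA processing that rose 1 to 2 and fell 3 to 5. Normalization was kept from all 8 arrays in these fits. The cause of these changes was not tested. H2ac18 and the other dim probes are limited by signal over background.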
